A study of Mus musculus with 8 samples.

Results

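The brain's blood vessels are represented here by 40 genes, 32 of endothelial cells and 8 of mural cells, which were looked up by symbol in a count table of 17613 genes. All 40 were found, each in 1 row, and all 40 were tested. The series compared brains of C57BL/6 mice, wild type (WT, 4 libraries) against Uhrf2 knockout (KO, 4 libraries), by sequencing of polyadenylated RNA. UHRF2 is a chromatin protein of the UHRF family with domains that recognise methylated and hydroxymethylated cytosine. The sources used here do not state age, sex, the structure of the allele or the cells in which it acts. Nor do they say that each library is 1 animal, so p-values measure the spread between these libraries, which may be technical.

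Endothelial cells of the brain are sealed to each other by tight junctions, which closes the paracellular route between blood and tissue. Nutrients then enter through carriers, and efflux pumps return many lipophilic compounds to the blood. Mural cells, which are pericytes on capillaries and smooth muscle cells on larger vessels, lie outside the endothelium in a shared basement membrane and are recruited by PDGF-B from endothelial cells. In libraries of brain tissue, a level is a share of the RNA of all cells, so fewer vascular cells and less of an RNA per cell cannot be told apart.

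Library totals ran from 11891350 to 19773921 counts, and members had from 12 to 2388 counts in a library. Levels are in CPM, the usual share of a library's scaled total count, as mean ± SD (n = 4), and 3 counts correspond to between 0.15 and 0.252 CPM. Uhrf2 itself (chromosome 19, 30030513 to 30093722) stood at 58.0, 47.7, 57.2 and 58.9 CPM in the libraries labelled WT and at 86.4, 88.6, 88.4 and 91.8 CPM in those labelled KO. Its level was 1.60-fold higher under the KO label (log2 fold change 0.68, SE 0.06, adjusted p = 5.45e-06), which goes against a loss of its transcript. Counts per gene do not separate a deleted part from the rest. WT and KO libraries therefore always means libraries labelled so, and every direction rests on those labels. On the first principal component of all tested genes (21.6% of the variance) the groups did not overlap. WT libraries lay at -12.9 to -5.79 and KO libraries at 2.69 to 19.8. On the second (19.8% of the variance) the libraries numbered 1, at 21 and 13.1, stood apart from the other 6, at -9.02 to -2.49.

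Of the 40 genes, 1 fell in the libraries labelled KO by edgeR's quasi-likelihood test at an adjusted p under 0.05, 0 rose and 39 did not pass. Among all 15902 tested genes, 1.43% passed, 0.289% lower and 1.14% higher. At an unadjusted p under 0.05, 9 members were lower and 1 was higher, where the same held for 6.16% and 6.45% of all tested genes. The log2 fold change was below 0 in 30 of the 40 members, against 52% of all tested genes. Its median was -0.092 over the members and -0.005 over all tested genes. Members were chosen with earlier results of these data known, so these shares are a description and not a test. All KO libraries lay below all WT libraries for 4 members, Slco1c1, Rgs5, Tek and Abcb1a (3.4% of all tested genes), and above them for 1, Slc7a5 (4.28%). DESeq2 and limma-voom also called 1 member, Slco1c1. The 95% interval of the log2 fold change lay within ±0.5 (1.41-fold) for 35 of the 40 members and included 0 for 30.

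**Figure D1:**
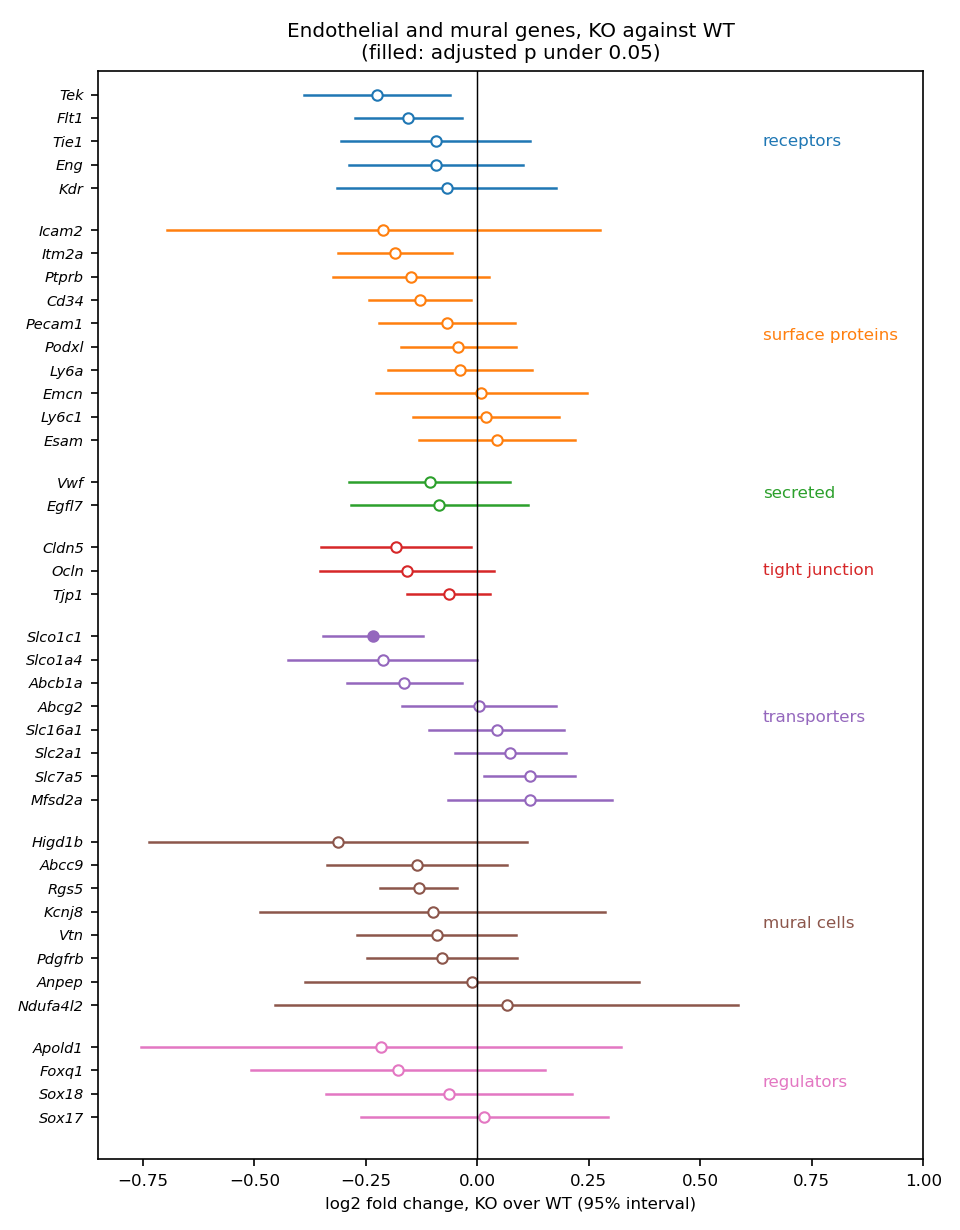
Log2 fold change of KO over WT libraries with its 95% interval for each of the 40 genes, grouped by role. The filled point marks Slco1c1, the member with an adjusted p under 0.05, and 30 of 40 points lie left of 0.

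Sequence upstream of the start was taken from RefSeq (GRCm38.p6) for the genes the results turn on: Slco1c1, the member that fell; Slco1a4, its relative in the same cluster of chromosome 6; the endothelial and mural markers Cldn5 and Rgs5; and the receptor Tek. Each line is the 250 bases before the start, 5′ to 3′ in the direction of the gene. The windows are chr6:141524104-141524353 (plus strand) for Slco1c1, chr6:141856221-141856470 (minus strand) for Slco1a4, chr16:18776597-18776846 (plus) for Cldn5, chr1:169655251-169655500 (plus) for Rgs5 and chr4:94739039-94739288 (plus) for Tek. In the Slco1c1 and Slco1a4 windows capitals mark the longest stretch they share. In the others capitals mark CpG, the dinucleotide at which most DNA methylation of mammals lies.
Slco1c1: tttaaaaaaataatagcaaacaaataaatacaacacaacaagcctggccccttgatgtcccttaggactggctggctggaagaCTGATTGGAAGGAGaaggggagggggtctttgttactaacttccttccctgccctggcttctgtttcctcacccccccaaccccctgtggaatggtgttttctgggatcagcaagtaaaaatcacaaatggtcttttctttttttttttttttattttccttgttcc
Slco1a4: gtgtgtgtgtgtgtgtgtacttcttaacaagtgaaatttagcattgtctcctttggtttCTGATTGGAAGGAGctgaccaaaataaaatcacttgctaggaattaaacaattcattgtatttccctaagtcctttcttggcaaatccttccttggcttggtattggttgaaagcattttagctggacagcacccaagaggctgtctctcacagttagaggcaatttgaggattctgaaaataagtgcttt
Cldn5: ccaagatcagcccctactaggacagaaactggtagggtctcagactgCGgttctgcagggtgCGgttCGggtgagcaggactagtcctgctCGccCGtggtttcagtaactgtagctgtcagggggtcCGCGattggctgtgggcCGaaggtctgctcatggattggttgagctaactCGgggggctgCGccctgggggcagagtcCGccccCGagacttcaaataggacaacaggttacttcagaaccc
Rgs5: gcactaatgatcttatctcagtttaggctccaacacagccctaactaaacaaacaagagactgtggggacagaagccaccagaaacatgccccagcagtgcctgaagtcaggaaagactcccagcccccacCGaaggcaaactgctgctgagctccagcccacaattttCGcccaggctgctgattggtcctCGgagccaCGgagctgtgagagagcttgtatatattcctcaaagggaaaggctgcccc
Tek: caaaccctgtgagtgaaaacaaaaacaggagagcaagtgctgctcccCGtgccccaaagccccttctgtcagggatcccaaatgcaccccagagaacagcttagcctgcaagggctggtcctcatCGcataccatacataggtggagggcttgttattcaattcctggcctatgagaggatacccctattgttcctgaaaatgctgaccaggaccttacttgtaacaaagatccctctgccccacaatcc

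The windows of Slco1c1 and Slco1a4 held 0 CpG, against 12 for Cldn5, 4 for Rgs5 and 2 for Tek. This was not particular to them: the window listed for Abcb1a and a window of Ly6c1 also held 0. The Abcb1a window ends at 8567090 on chromosome 5, far before the GENCODE M21 start of that gene at 8660077. Of these genes Slco1c1 passed, while Slco1a4, Abcb1a and Ly6c1 did not (log2 fold change -0.21, -0.16 and 0.02). Whether CpG content and fold change go together was not tested. Over the 32 windows listed for 26 of the 40 members, CpG ran from 0 to 37 with a median of 7.5, and the median was 6 over all 32841 windows. The stretch CTGATTGGAAGGAG, of 14 bases, began 167 bases before the start of Slco1c1 and 191 before that of Slco1a4. Searched on both strands, it was found in 2 of the 32841 windows, those of Slco1c1 and Slco1a4 from which it was taken. Those 2 hits were therefore fixed in advance. Whether absence elsewhere is unusual for a stretch of 14 bases was not tested. It was picked by a search for the longest stretch these 2 windows share, and its match is a description of the letters, not of a site. It holds GGAAG, the core that ETS factors of endothelial cells bind, which was present in 22 of 32 member windows (68.8%) and in 64.1% of all windows, on either strand. ACAANG, a core of SOX factors, was in 31.2% of member windows and 36.3% of all, TAAACA, of forkhead factors, in 12.5% and 12%, and AGATAA, of GATA factors, in 6.2% and 10%. None of these shares counts overlapping motifs apart. Methylation was not measured in the libraries analysed here.

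Levels between genes were compared per kb of exon (CPM per kb, WT libraries). Itm2a, a membrane protein of endothelial cells, was the highest at 34.7 ± 1.65. Slc2a1, the glucose carrier of the barrier, followed at 30.04 ± 1.64, and Vtn, the matrix protein vitronectin made by pericytes, at 29.2 ± 3.25. These 3 and Rgs5 (23.8 ± 0.39) stood above the other members, and the lowest were Anpep (0.897 ± 0.194) and Foxq1 (0.892 ± 0.132), whose ranges of 1 SD overlapped. The order of Slc2a1 and Vtn likewise lay within their spread. None of the 40 was at 0 in any library, and the defining markers Cldn5, Rgs5 and Slco1c1 were present in all 8.

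**Figure D2:**
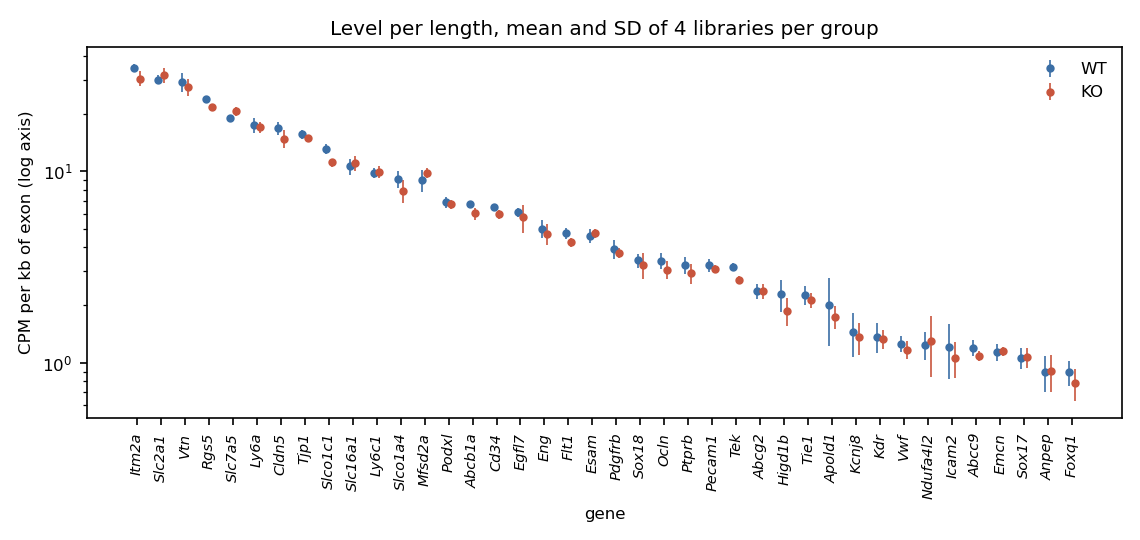
Mean level per kb of exon on a log axis for the 40 genes in WT and KO libraries, with SD over 4 libraries. The genes span from 34.7 for Itm2a to 0.892 for Foxq1 in WT libraries.

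The barrier transporters had values on either side of 0. Of 8, Slco1c1 fell in the libraries labelled KO and 7 did not pass, and 3 had a log2 fold change below 0, at a median of 0.023. Slco1c1 carries thyroxine and other organic anions into the brain. It measured 61.8, 71.2, 67.8 and 69.997 CPM in WT replicates 1 to 4 and 55.3, 61.6, 56.8 and 56.8 CPM in KO replicates 1 to 4. The highest KO library lay just below the lowest WT library, WT replicate 1. This gave a log2 fold change of -0.23 (SE 0.05, 95% interval -0.35 to -0.12, adjusted p = 0.0321). Slco1c1 (ENSMUSG00000030235) lies on chromosome 6 from 141524368 to 141570177 on GRCm38. It missed the threshold when WT replicate 2, 3 or 4 or KO replicate 1, 3 or 4 was left out (adjusted p from 0.0844 to 0.13) and with trends on GC content and length removed (0.087). Without both libraries numbered 1 it passed (0.0219).

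Slco1a4, an organic anion carrier of the barrier, is encoded on the opposite strand of the same chromosome, from 141805440 to 141856199. It stood at 52.1, 64.6, 61.7 and 55.4 CPM in the WT libraries and at 42.4, 58.03, 47.5 and 54.4 CPM in the KO libraries. The groups overlapped, and the lowest library of each group was that numbered 1. Its log2 fold change was -0.21 (SE 0.10), close to that of Slco1c1 but with a wider interval, from -0.42 to -0.0004 (adjusted p = 0.395). Abcb1a, which encodes the efflux pump P-glycoprotein, stood at 36.6, 39.1, 37.01 and 35.7 CPM in the WT group and 29.8, 34.6, 34.99 and 32.7 CPM in the KO group. The groups did not overlap, and KO replicate 1 was the lowest. This is a log2 fold change of -0.16 (SE 0.06, adjusted p = 0.249). Abcg2, the other efflux pump of the list, differed by 0.003 (SE 0.08) at 19.3 ± 1.68 and 19.3 ± 1.79 CPM.

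The nutrient carriers had values at or above 0. Slc7a5, which carries large neutral amino acids, measured 71.6, 70.1, 70.1 and 68.9 CPM in the WT group and 82.3, 76.9, 72.2 and 73.3 CPM in the KO group. Every KO library lay above every WT library, with the largest gap for KO replicate 1, but the log2 fold change of 0.12 (SE 0.05) had an adjusted p of 0.313. Its partner Slc3a2, the heavy chain of the same carrier, differed by 0.025 (SE 0.04). Slc2a1 stood at 104.95, 101.3, 113.5 and 101.5 CPM in the WT group and 99.4, 123.9, 109.1 and 110.9 CPM in the KO group. KO replicate 2 was the highest and KO replicate 1 the lowest of the 8, at a log2 fold change of 0.07 (SE 0.06). Mfsd2a, the carrier of lysophospholipids with omega-3 fatty acids, and Slc16a1, the monocarboxylate carrier, differed on the log2 scale by 0.12 (SE 0.09) and 0.04 (SE 0.07). Slc7a5 and Slc2a1 are also made by other brain cells, so their levels are not those of vessels alone. Which cells made the RNA of Slco1c1 and the other carriers was not measured.

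**Figure D3:**
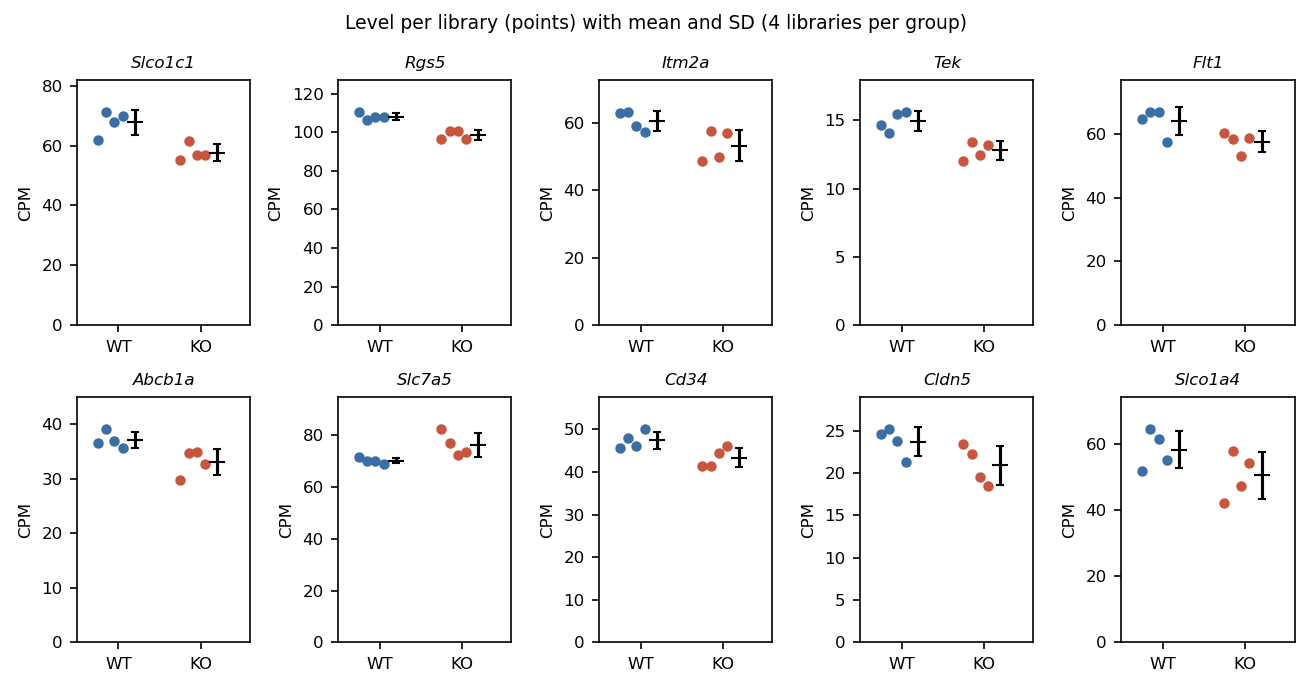
CPM in each library (points), with mean and SD of 4 libraries per group, for the 10 members with an unadjusted p under 0.05. KO libraries lie below WT libraries without overlap for Slco1c1, Rgs5, Tek and Abcb1a and above them for Slc7a5; of the 10, Slco1c1 passed after adjustment.

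None of the 3 tight junction genes passed by edgeR (1 at an unadjusted p under 0.05), and all 3 log2 fold changes were below 0. Cldn5, the claudin that seals the endothelial junction, stood at 24.6, 25.2, 23.8 and 21.3 CPM in the WT group and 23.4, 22.3, 19.6 and 18.5 CPM in the KO group. The groups overlapped, since WT replicate 4 lay below KO replicates 1 and 2. It had a log2 fold change of -0.18 (SE 0.08, 95% interval -0.35 to -0.01, adjusted p = 0.347). Occludin, Ocln, and the scaffold Tjp1, which is also made outside vessels, differed on the log2 scale by -0.16 (SE 0.09) and -0.06 (SE 0.04).

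All 5 endothelial receptors had log2 fold changes below 0, and none passed (2 at an unadjusted p under 0.05). Tek, the angiopoietin receptor, stood at 14.6, 14.03, 15.5 and 15.6 CPM in the WT group and 12.01, 13.4, 12.5 and 13.2 CPM in the KO group. The groups did not overlap, with a log2 fold change of -0.23 (SE 0.08, adjusted p = 0.2), about as large as that of Slco1c1 but at a lower level. Flt1, a VEGF receptor that also acts as a decoy, stood at 64.6, 66.7, 66.8 and 57.5 CPM in the WT group and 60.2, 58.5, 52.9 and 58.6 CPM in the KO group. WT replicate 4 lay below 3 of the 4 KO libraries, with a log2 fold change of -0.15 (SE 0.06, adjusted p = 0.243). Kdr, the main signalling receptor for VEGF, stood at 12.4 ± 2.22 and 11.99 ± 1.33 CPM, with a log2 fold change of -0.07 (SE 0.12) that was 0.008 without WT replicate 3. Eng, a coreceptor of the TGF-beta family, measured 17.8, 20.8, 22.9 and 19.4 CPM in the WT group and 15.6, 19.9, 19.7 and 21.1 CPM in the KO group. Its groups overlapped in part, with KO replicate 1 the lowest and WT replicate 3 the highest of the 8 (log2 fold change -0.09, SE 0.09). Tie1, the relative of Tek, had -0.09 (SE 0.10).

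Of the 10 other surface and membrane proteins, none passed (2 at an unadjusted p under 0.05), and the log2 fold change was below 0 in 7, at a median of -0.055. Itm2a stood at 62.7, 63.1, 58.9 and 57.2 CPM in the WT group and 48.5, 57.4, 49.8 and 57.03 CPM in the KO group. KO replicate 2 lay just above WT replicate 4 and the other KO libraries below all WT libraries (log2 fold change -0.19, SE 0.06, adjusted p = 0.175). Cd34, a sialomucin, stood at 45.7, 47.9, 46.1 and 50.1 CPM in the WT group and 41.5, 41.4, 44.6 and 46.01 CPM in the KO group. Its groups overlapped by KO replicate 4, at a log2 fold change of -0.13 (SE 0.05, adjusted p = 0.326). Ptprb, the phosphatase that acts on Tek, had -0.15 (SE 0.08), Icam2, an adhesion molecule, -0.21 (SE 0.23) and Pecam1, the adhesion molecule of endothelial junctions, -0.07 (SE 0.07).

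The remaining surface genes stayed near 0. Podxl and Emcn, sialomucins like Cd34, differed on the log2 scale by -0.04 (SE 0.06) and 0.008 (SE 0.11), and the junction protein Esam 0.04 (SE 0.08). Ly6a and Ly6c1, membrane-anchored proteins of a gene cluster on chromosome 15, had -0.04 (SE 0.08) and 0.02 (SE 0.08). Ly6a and Ly6c1 have close copies in that cluster, as Abcb1a has in Abcb1b, and the counting program is not given, so reads of such copies may be split. The secreted proteins did not pass either (none at an unadjusted p under 0.05). Egfl7, which binds vascular matrix, stood at 22.7, 23.04, 21.2 and 20.7 CPM in the WT group and 17.4, 25.4, 20.6 and 18.8 CPM in the KO group. KO replicates 1 and 2 were the lowest and the highest of all 8 (log2 fold change -0.09, SE 0.09). Vwf, the clotting protein of larger vessels, had -0.11 (SE 0.09).

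The 4 regulators, 3 of them transcription factors, were low and none passed (none at an unadjusted p under 0.05). Sox18 stood at 5.63, 5.39, 4.99 and 6.15 CPM in the WT group and 4.55, 4.52, 5.92 and 6.01 CPM in the KO group, with overlap and a log2 fold change of -0.06 (SE 0.13). Its relative Sox17 had 0.02 (SE 0.13) and the forkhead factor Foxq1 -0.18 (SE 0.16). In GENCODE M21, 66.1% of the exon length of Foxq1 and 16.9% of that of Sox17 overlap a gene on the opposite strand. Among the other members the largest overlaps were 10.1% for Abcb1a, on the opposite strand, and 7.37% for Egfl7, on the same strand. Apold1, an inducible gene of endothelial cells, varied most within the WT libraries, with a coefficient of variation of 38.4%, at 4.29, 10.4, 8.19 and 5.57 CPM. Its KO libraries, at 5.22 to 7.19 CPM, all lay inside that range (log2 fold change -0.22, SE 0.24).

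Among 8 mural genes, 7 had a log2 fold change below 0, at a median of -0.096, and none passed (1 at an unadjusted p under 0.05). Their summed level was 203.2 to 220.5 CPM in WT and 191.0 to 199.5 CPM in KO libraries, most of it from Rgs5 and Vtn. Rgs5, a regulator of G protein signalling that marks pericytes, was among the steadiest members, with a coefficient of variation of 1.63% over the WT libraries. It stood at 110.5, 106.3, 108.1 and 107.7 CPM in the WT group and 96.3, 100.6, 100.8 and 96.7 CPM in the KO group. The groups did not overlap, at a log2 fold change of -0.13 (SE 0.04, 95% interval -0.22 to -0.05, adjusted p = 0.146). Vtn stood at 54.3, 68.8, 58.5 and 55.3 CPM in the WT group and 64.6, 51.98, 52.6 and 54.3 CPM in the KO group. Its groups overlapped, and KO replicate 1 was above 3 of the 4 WT libraries (log2 fold change -0.09, SE 0.08).

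Pdgfrb, the receptor through which PDGF-B holds pericytes on the vessel, stood at 21.6 ± 2.52 and 20.6 ± 1.18 CPM (log2 fold change -0.08, SE 0.08). Kcnj8 and Abcc9, the pore and the regulatory subunit of the potassium channel of pericytes, are neighbours on chromosome 6 and had -0.10 (SE 0.18) and -0.14 (SE 0.10). The pericyte genes Higd1b, Anpep and Ndufa4l2 were low, with WT means of 1.36 to 3.71 CPM, and differed on the log2 scale by -0.31 (SE 0.20), -0.01 (SE 0.18) and 0.07 (SE 0.25). The 95% interval of each of the 3 included both 0 and the value of Slco1c1.

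Among genes of vascular signalling outside the 40, in a list of 49 tested ligands, receptors and targets, 3 rose, 0 fell by edgeR (5 lower and 5 higher at an unadjusted p under 0.05) and 46 did not pass, at a median log2 fold change of -0.012. Pdgfb, the ligand of Pdgfrb, which neurons also make, stood at 16.4, 21.3, 20.5 and 19.7 CPM in the WT group and 24.1, 26.9, 26.1 and 26.6 CPM in the KO group. It rose 1.33-fold in the libraries labelled KO, with no overlap (log2 fold change 0.40, SE 0.08, adjusted p = 0.00763) and passed under all 18 alternatives, at an adjusted p of up to 0.0359. Its receptor, above, had a 95% interval of the log2 fold change from -0.25 to 0.09.

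Nrp1 and Nrp2, coreceptors for VEGF and for semaphorins that neurons make too, also rose. Nrp1 stood at 41.5, 38.4, 38.2 and 40.9 CPM in the WT group and 58.2, 46.8, 47.3 and 46.2 CPM in the KO group, with KO replicate 1 far above the rest (log2 fold change 0.32, SE 0.07, adjusted p = 0.0226). Nrp2 stood at 34.4, 35.1, 35.3 and 40.1 CPM in the WT group and 54.4, 40.2, 48.7 and 51.8 CPM in the KO group. The groups of Nrp2 were separated by little, between WT replicate 4 and KO replicate 2 (log2 fold change 0.43, SE 0.08, adjusted p = 0.0131). With WT replicate 2 or WT replicate 3 left out, Nrp1 did not pass (adjusted p = 0.0765 and 0.103). Nrp2 missed the threshold without WT replicate 1, 2 or 3 or KO replicate 3 or 4 (0.058 to 0.07), and without both libraries numbered 1 (0.0848).

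Further ligands, named here with their values known, did not pass. Vegfa, a ligand of Flt1 and Kdr, stood at 87.1 ± 6.52 and 91.99 ± 0.956 CPM (log2 fold change 0.08, SE 0.05). Its relatives Vegfc, Vegfb and Pgf had -0.43 (SE 0.18), -0.01 (SE 0.05) and -0.13 (SE 0.15). Angpt1, which activates Tek, stood at 9.95 ± 0.815 and 8.79 ± 1.04 CPM (-0.18, SE 0.10). Angpt2, which mostly opposes it, stood at 1.99 ± 0.161 and 2.84 ± 0.949 CPM (0.49, SE 0.21, adjusted p = 0.346), with KO replicate 1 highest at 4.18 CPM.

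**Figure D4:**
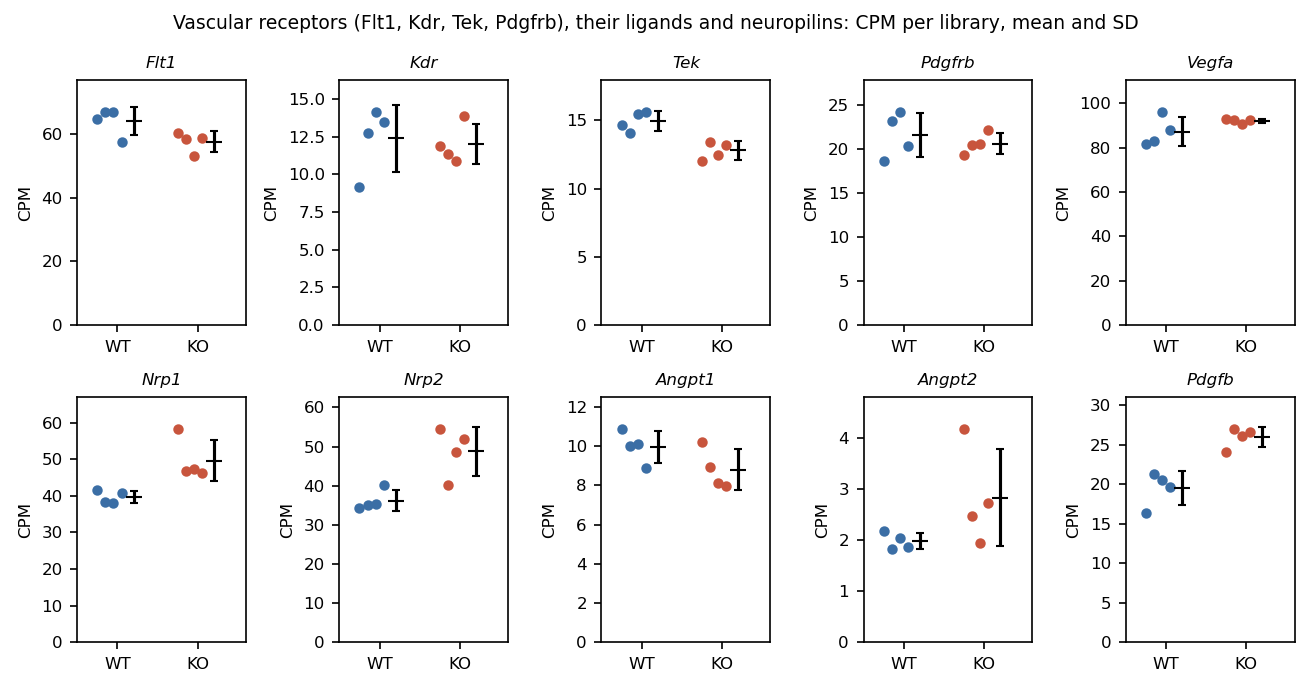
CPM in each library (points), with mean and SD of 4 libraries per group, for the vascular receptors Flt1, Kdr, Tek and Pdgfrb, their ligands Vegfa, Angpt1, Angpt2 and Pdgfb, and the neuropilins. Pdgfb, Nrp1 and Nrp2 lie higher in all KO libraries than in any WT library, while the receptors lie level or lower.

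Other vascular genes gave few calls. Of 38 further junction and transport genes none passed (3 lower at an unadjusted p under 0.05), at a median log2 fold change of -0.075. Among them Cdh5, the cadherin of endothelial junctions, named with its value known, stood at 14.7 ± 1.51 and 12.5 ± 0.141 CPM without overlap (log2 fold change -0.23, SE 0.09, adjusted p = 0.243). Of 36 further endothelial and basement membrane genes, 1 fell, 0 rose by edgeR (3 lower and 1 higher at an unadjusted p under 0.05) and 35 did not pass, at a median of -0.046. The gene that fell was Palmd, at 15.1, 15.4, 13.04 and 13.8 CPM in the WT group and 9.17, 10.7, 11.2 and 11.2 CPM in the KO group, a group clearly below the other (log2 fold change -0.43, SE 0.09, adjusted p = 0.0183). It did not pass with WT replicate 1 (0.0546), WT replicate 2 (0.0743) or KO replicate 1 (0.0553) left out, or both libraries numbered 1 (0.11). Of 27 further mural genes none passed (4 lower and 1 higher at an unadjusted p under 0.05), at a median of -0.059. These lists are not of vessels alone: Aqp4, in the list of 38, is also listed with astrocytes. Rgs4 and Zic1, in the mural list and named for their level, stood at 258 and 220 CPM in WT libraries, against 108 CPM for Rgs5. Which cells made them was not tested. Over the 150 genes of the 4 lists of other vascular genes, edgeR and limma-voom called 4 and DESeq2 called 5.

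Taking the members library by library, each gene was set against its own mean over the 8 libraries on the log2 scale. The median of the 32 endothelial genes was 0.009, 0.078, 0.098 and 0.003 in WT replicates 1 to 4 and -0.121, 0.029, -0.052 and -0.023 in KO replicates 1 to 4. KO replicate 2 therefore lay above WT replicates 1 and 4, and the groups overlapped. The median of the 8 mural genes was -0.176, 0.152, 0.048 and 0.008 in the WT libraries and -0.079, -0.067, -0.076 and 0.040 in the KO libraries. Mural and endothelial genes did not keep the same order of libraries: WT replicate 1 was the lowest for mural and near the middle for endothelial genes. Summed over the 40 genes, the WT libraries held 1208 to 1285 CPM and the KO libraries 1160.0 to 1233 CPM.

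**Figure D5:**
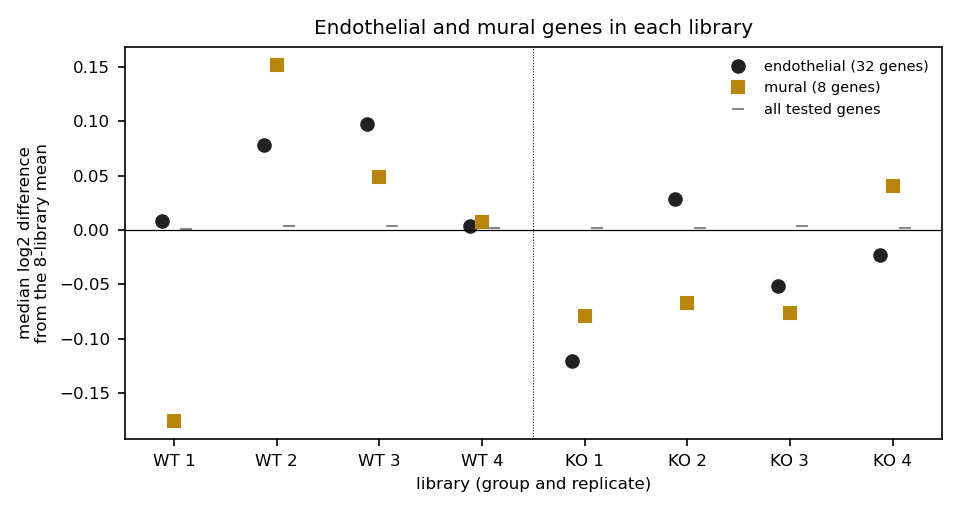
Median log2 difference from each gene's 8-library mean, for 32 endothelial genes, 8 mural genes and all tested genes, in each library. Endothelial medians run from 0.003 to 0.098 in WT and from -0.121 to 0.029 in KO libraries, and all tested genes stay within 0.004 of 0.

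Other cell types share these libraries, and the part of their markers' values in the vascular ones was not tested. Of 91 tested genes in 8 such lists none passed by edgeR or limma-voom and 2 by DESeq2 (8 lower and 9 higher at an unadjusted p under 0.05), and none of the listed genes in the table was at 0 in all libraries. All 12 neuronal markers had log2 fold changes above 0 (median 0.093), where 7627 of all 15902 tested genes did. Their sums were 7346 to 7850 CPM in the WT group and 7579 to 8256 CPM in the KO group. At an unadjusted p under 0.05 by edgeR, 6 of these 12 were higher and 0 lower, against 6.45% and 6.16% of all tested genes. The other higher genes were 2 of fibroblasts and meninges and 1 of microglia. Lower were 3 of astrocytes, 3 of microglia, 2 of myelinating cells and 1 of choroid plexus. These include Aqp4, which the total of 8 leaves out because it is also in a vascular list. The log2 fold change was below 0 in 11 of 12 markers of myelinating cells (7637 to 8004 against 7156 to 8080 CPM), 10 of 12 of choroid plexus (926.6 to 1296 against 914.4 to 1084 CPM), 11 of 15 of fibroblasts and meninges (520.9 to 571.5 against 502.1 to 603.1 CPM) and 9 of 15 of astrocytes (6920.0 to 7042 against 6557 to 7069 CPM). It was below 0 in 7 of 12 markers of microglia (482.4 to 545.2 against 484.1 to 512.9 CPM), 2 of 6 of perivascular macrophages (33.5 to 35.9 against 30.5 to 39.1 CPM) and 4 of 8 of blood (58.7 to 79.3 against 55.4 to 89.3 CPM). The ranges of the sums overlapped between the groups for each of these 8 lists.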

How the data were processed

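A stranded mRNA kit was used to make 8 libraries of polyadenylated brain RNA, per the labels' protocols. The deposited values are expected counts (estimated read counts) per gene, not scaled between libraries; 91.5% were whole within 0.001. Per the submitters' processing notes, TopHat2 2.0.9, edgeR and GRCm38 (mm10) were used, in roles not stated. No source used here states how reads were counted or with which strand setting, and so overlapping or antisense genes cannot be told apart; 6 members had fractional counts in at least 1 library.

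Counts were rounded, filtered by filterByExpr and scaled by TMM. The main test was edgeR's quasi-likelihood F-test (edgeR 4.0.16 in R 4.3.3), robust, on a model of group alone, with Benjamini-Hochberg adjustment over 15902 genes at a threshold of 0.05. Each SE comes from the coefficient and its F statistic. Exon lengths and positions are from GENCODE M21 (GRCm38). Alternatives used limma 3.58.1 and DESeq2 1.42.0 among others. Tests were checked on simulated counts. Libraries of 1 group were not copies of each other (chi-square per degree of freedom 2.43 to 4.91). Members had 12 to 2388 counts per library, which with the number of libraries limits precision. Members and lists were chosen with earlier results of these data known. The naming rule gives values in every library for the markers, for members with an unadjusted p under 0.05 and for the member of each role with the highest level per kb; further genes are marked where named.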

Additional observations from a re-analysis of the deposited data

Results flagged for a closer look

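In a group of 4 libraries, a library counted as apart when its gap to the nearest other, divided by the range of the group, was above Dixon's critical value for 4, which chance exceeds in about 1 of 20 groups. Of the 80 checks on the 40 members, 1 was past it: Tjp1, the junction scaffold, stood at 131 CPM in WT replicate 4 against 118 to 119 CPM in the other WT libraries. Uhrf2 stood at 47.7 CPM in WT replicate 2 against 57.2 to 58.9 CPM in the others. Nrp1 stood at 58.2 CPM in KO replicate 1 against 46.2 to 47.3 CPM, and Nrp2 at 40.1 CPM in WT replicate 4 against 34.4 to 35.3 CPM.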

How the results depend on the processing

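Slco1c1 was lower in the KO libraries under all 18 alternatives (log2 fold change -0.269 to -0.205) and missed the threshold under 7 of them; the median of the 40 log2 fold changes stayed between -0.128 and -0.0599. The number of members past the threshold was 1, and 0 to 1 with 1 library left out, 0 with trends on GC content and length removed, and 2 with the replicate block, which added Slco1a4 (adjusted p = 0.0427 by edgeR). Of all tested genes 228 passed, 110 to 324 with 1 library left out, 495 with the replicate block and 520 with the block and the trends removed. Of these 46 were lower, 14 to 77 with 1 library left out, 148 with the block, 150 with the block and the trends removed, and 18 without both libraries numbered 1. Of the other vascular genes 4 passed, 1 to 5 with 1 library left out, 7 with the block and the trends removed, and 2 without both libraries numbered 1. The cause was not tested. The labels do not say what a replicate number marks. Same-numbered libraries deviated together with r = 0.208, 0.0772, 0.0245 and 0.0673 (numbers 1 to 4), each above 0. Libraries of unlike number had r from -0.149 to 0.11. The values of numbers 2, 3 and 4 lay inside that range, so the numbers were not taken as pairs. Of the 8 libraries, 5 correlated best with their own number, a hint from the data and not the design. Of the members that did not pass, 14 changed sign under at least 1 alternative. Abcg2 was at -0.000245 with upper-quartile factors. Without both libraries numbered 1, Emcn was at -0.0307, Slc16a1 at -0.0602 and Sox18 at 0.00547. With 1 library left out, log2 fold changes ran from -0.168 to 0.00786 for Kdr, -0.0291 to 0.0606 for Emcn, -0.393 to 0.0311 for Icam2, -0.0739 to 0.0116 for Podxl, -0.0244 to 0.056 for Ly6c1, -0.0993 to 0.00422 for Ly6a and -0.0573 to 0.0475 for Abcg2. They ran from -0.0118 to 0.0999 for Slc16a1, -0.231 to 0.0606 for Kcnj8, -0.103 to 0.124 for Anpep, -0.154 to 0.211 for Ndufa4l2, -0.0408 to 0.103 for Sox17, -0.129 to 0.00389 for Sox18 and -0.365 to 0.0125 for Apold1. The SE was 0.20 or more for Ndufa4l2, Apold1, Icam2 and Higd1b, with WT means of 1.36 to 7.12 CPM.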
